A study of Arabidopsis thaliana with 6 samples.

Results

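Leaf senescence is the controlled dismantling of an ageing leaf, in which chlorophyll and proteins are broken down and nitrogen is moved to growing tissue. It is read out with a small set of marker genes: SAG12 and SAG13, which are switched on as leaves age, SAG21 and SEN1, which also answer stress and darkness, SAG101, and the transcription factor genes NAC6 and NAP, which drive the programme. These 7 genes were taken by locus from the probes for genes on the array, which gave 13 of 43603 probes and 7 of 25383 genes. The members were AT5G45890 (SAG12), AT2G29350 (SAG13), AT4G02380 (SAG21), AT5G14930 (SAG101), AT4G35770 (SEN1), AT5G39610 (NAC6, also called ORE1) and AT1G69490 (NAP).

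The RNA came from whole rosette leaves of wild-type Arabidopsis thaliana grown on soil and harvested at 4 weeks. One group of 3 samples had received ambient air and the other group of 3 that air plus nitric oxide (NO) at 3 ppm, day and night until harvest. The design text describes 3 independent biological experiments, and each sample was hybridised to its own one-colour array. The NO content of the ambient air and the accession of the wild type are not given in the sources used here. A signal is given below as a multiple of the 75th percentile of gene spots on its array, and a change as the log2 difference, 3 ppm NO minus ambient, ± its SE from limma with n = 3 arrays per group. A gene passed where its limma p, Benjamini-Hochberg adjusted over 18696 tested genes, was under 0.05. Testing required that either group had the probe well above background on each of its 3 arrays, and all 7 members met this.

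The ambient arrays shared one slide and scan and the NO arrays another, and for every value given here group and slide cannot be told apart. Of 61657 gene spots per array, 65.2% to 72.0% were well above background and none was saturated. Of 10 probes for spike-in transcripts added during labelling, 8 were higher on every NO array. The brightest was higher by 5.75 on the log2 scale, without scaling to the 75th percentile. Among the 8, (+)E1A_r60_a107 was not well above background on any array, and (+)E1A_r60_a135 and (+)E1A_r60_a20 on no ambient array. The part of the spike-in differences in the results was not tested. The median log2 difference of all tested genes was -0.05. All 6 reference genes, chosen for steady expression, did not pass, with log2 changes between -0.06 and 0.06. Across all genes 57.9% passed, with 25.7% higher and 32.2% lower in NO, so passing the test is common on these arrays. The leaf markers RBCS1A, RCA, CA1 and LHCB6 were bright on all 6 arrays, with a summed signal of 437 to 472 in ambient air and 795 to 1000 in NO, and all 4 rose. RCA lost this call and changed sign with quantile normalization. Markers of root (4 genes), flower (6 genes) and seed (4 genes) summed to at most 0.161, 0.979 and 0.0602, below 1 times the 75th percentile in every sample. The root hair marker EXP7, the endodermis marker CASP1 and the seed storage genes CRA1 and SESA3 were not well above background on any array. PYK10 of the root list rose by 0.94 ± 0.16 (0.36 with normexp), and AP1, AP3 and PI of the flower list rose by 0.43 to 0.45, with AP1 and AP3 each below the threshold in several other settings and AP3 at -0.04 with normexp. The other 2 tested flower markers, AG and SEP3, did not pass, at -0.20 ± 0.09 and -0.27 ± 0.12. The part of these tissues in the results below was not tested.

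Rosettes grown in 3 ppm NO carried less RNA of 4 of the 7 senescence markers and more of 1. SAG12, the marker most closely tied to ageing, was 27.6-fold lower, SAG13 was 2.45-fold lower, and the regulators NAC6 and NAP were 1.44-fold and 1.31-fold lower. SEN1, which darkness and sugar shortage induce, went the other way and was 4.53-fold higher. SAG21 and SAG101 did not pass. In bulk leaf RNA, fewer senescing cells and less RNA in each of them cannot be told apart.

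As a count, 5 of 7 members passed, beside 57.9% of all tested genes, so the number of members called lies near the background. The size of the changes was less common. Among all tested genes 2.00% passed and fell by at least 2-fold and 5.01% passed and rose by at least 2-fold. Of the 7 members 2 fell and 1 rose by that much. The members were chosen with earlier results of these data known, so this comparison is a description only. The 3 arrays of one group lay wholly above or below those of the other in 6 of the 7 members, beside 66.5% of all tested genes.

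**Figure D1:**
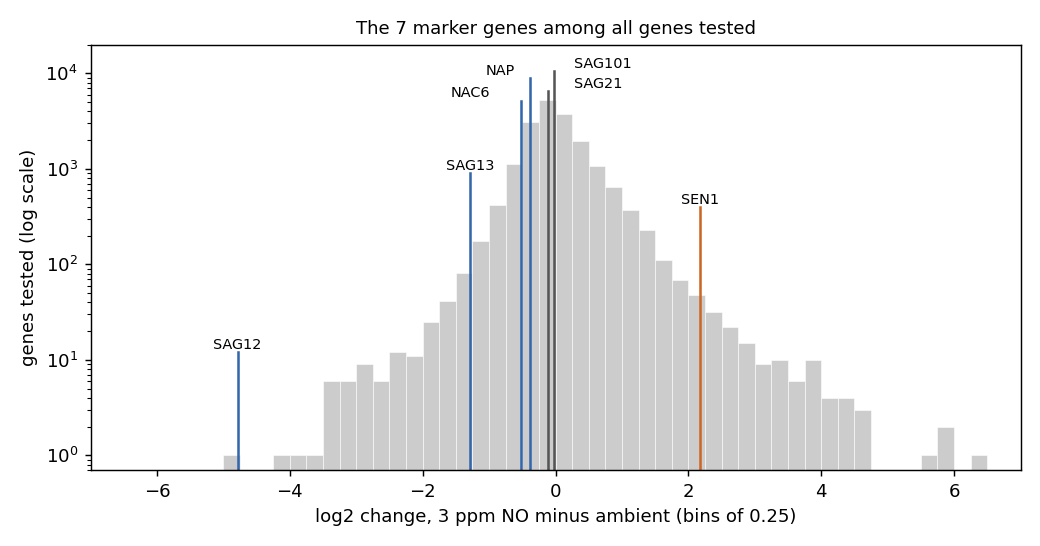
Distribution of the log2 change, 3 ppm NO minus ambient, over the 18696 tested genes (grey bars, bins of 0.25, log-scaled count), with a line for each marker gene (blue fell, orange rose, dark grey did not pass). SAG12 lies at -4.79 at the far left, SEN1 at 2.18 on the right, and the other 5 genes between -1.29 and -0.03.

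SAG12 encodes a papain-like cysteine protease that accumulates in the vacuoles of senescing leaf cells. Its signal was 37.4, 36.5 and 37.9 times the 75th percentile on the ambient arrays and 1.37, 1.27 and 1.42 times on the NO arrays. The samples within a group lay close together and the groups were far apart. The log2 change was -4.79 ± 0.06 (adjusted p = 4.08e-07 in limma), with a 95% confidence interval of -4.93 to -4.65, and 0 of the other tested genes fell further. The second SAG12 probe, printed in 2 spots per array, went from 25.8 to 28.1 in ambient air to 0.941 to 1.06 in NO, a log2 change of -4.76 ± 0.07. SAG12 was thus still well above background on all 3 NO arrays with both probes. Likeness of pattern was measured as the Euclidean distance between the 6 log2 values of 2 genes, each centred on its ambient mean. The nearest genes with a symbol were LDOX and TT7, enzyme genes of anthocyanin and flavonoid synthesis, at distances of 2.24 and 2.40, with log2 changes of -3.50 ± 0.07 and -3.40 ± 0.05, far from the -4.79 of SAG12.

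Of 5 close relatives of SAG12 among the cysteine proteases, 2 were tested and both rose, AT2G27420 from 1.18 to 1.30 times the 75th percentile in ambient air to 3.32 to 3.59 times in NO (2.83-fold) and AT3G49340, named after its value was seen, by 1.41 ± 0.17. No array had a signal well above background for the other 3. Of the 4 other papain-like protease genes in the lists below, 3 fell and 1 rose by their brightest probes. Among all tested genes 32.2% fell and 25.7% rose. CEP1 changed by -0.62 ± 0.08, RD21A by -0.33 ± 0.06 and SAG2 by -0.19 ± 0.05, all 3 named after their values were seen. RD19 changed by 0.60 ± 0.05. Tested singly over all probes, 3 of 5 RD21A probes fell (-0.33 to 0.01) and 1 of 4 SAG2 probes did (-0.19 to 0.07). All 4 RD19 probes rose. Whether probes of relatives share signal was not tested.

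SAG13 encodes a short-chain dehydrogenase of the tropinone reductase-like type and is used as an early senescence marker. Its single probe read 2.74, 2.81 and 2.95 times the 75th percentile in ambient air and 1.29, 1.12 and 1.07 times in NO. All 3 NO samples lay below all 3 ambient samples, and the spread was wider in NO. The log2 change was -1.29 ± 0.08 (adjusted p = 3.85e-05 in limma), a fall exceeded by 183 of the tested genes. CGA1, a GATA transcription factor gene, and FLA5, a fasciclin-like arabinogalactan protein gene, were nearest in pattern over the 6 arrays, at distances of 0.105 and 0.181, with log2 changes of -1.28 ± 0.09 and -1.37 ± 0.08.

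SAG13 lies in a tandem row of closely related genes, and most of these rose. Of 11 relatives on the same stretch, 10 were tested, 6 rose, 2 fell and 2 did not pass. Among all tested genes 25.7% passed as higher and 32.2% as lower. Rises passed in AT2G29290 (2.10 ± 0.09, with all 3 of its probes higher, from 1.23 to 2.10), AT2G29310 (1.73 ± 0.06) and AT2G29170 (1.39 ± 0.06), among others. AT2G29370 fell like SAG13, by 1.001 on the log2 scale (SE 0.05), and AT2G29150, named after its value was seen, had a change of -0.76 ± 0.17. The direct neighbours of SAG13 in the gene table, AT2G29340 and AT2G29360, did not fall. Their changes were 0.47 ± 0.05 (passed) and 0.16 ± 0.06 (adjusted p = 0.0739 in limma). The other AT2G29360 probe, at 0.14, passed as higher over all probes. Probe sequences were not used here, so the value of each of these copies is uncertain to the extent that their probes share signal.

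SEN1, also called DIN1, encodes a small rhodanese-domain protein of the chloroplast and is induced in detached or darkened leaves and by sugar shortage. It was a dim gene in ambient air, at 0.175, 0.188 and 0.205 times the 75th percentile, and read 0.888, 0.841 and 0.835 times in NO. Every NO sample was above every ambient sample, and all 6 were well above background. The log2 change was 2.18 ± 0.07 (adjusted p = 3.43e-06 in limma), with a 95% interval of 2.01 to 2.35, and 125 tested genes rose further. The second probe was dimmer, at 0.0531 to 0.0572 in ambient air and 0.206 to 0.270 in NO, and gave 2.04 ± 0.11, or 1.18 when the background was corrected with normexp. SQD1, a sulfolipid synthesis gene, and GRP-3, a glycine-rich protein gene, were nearest in pattern (distances 0.106 and 0.168). Of 4 relatives of SEN1 with a rhodanese domain, 2 rose and 2 did not pass, beside 25.7% higher among all tested genes. STR16 rose by 0.84 ± 0.05 and AT2G21045 by 0.88 ± 0.12, both named after their values were seen. AT2G17850, also named so, did not pass at 0.27 ± 0.32. Its other tested probe, at 0.95, passed as higher over all probes.

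**Figure D2:**
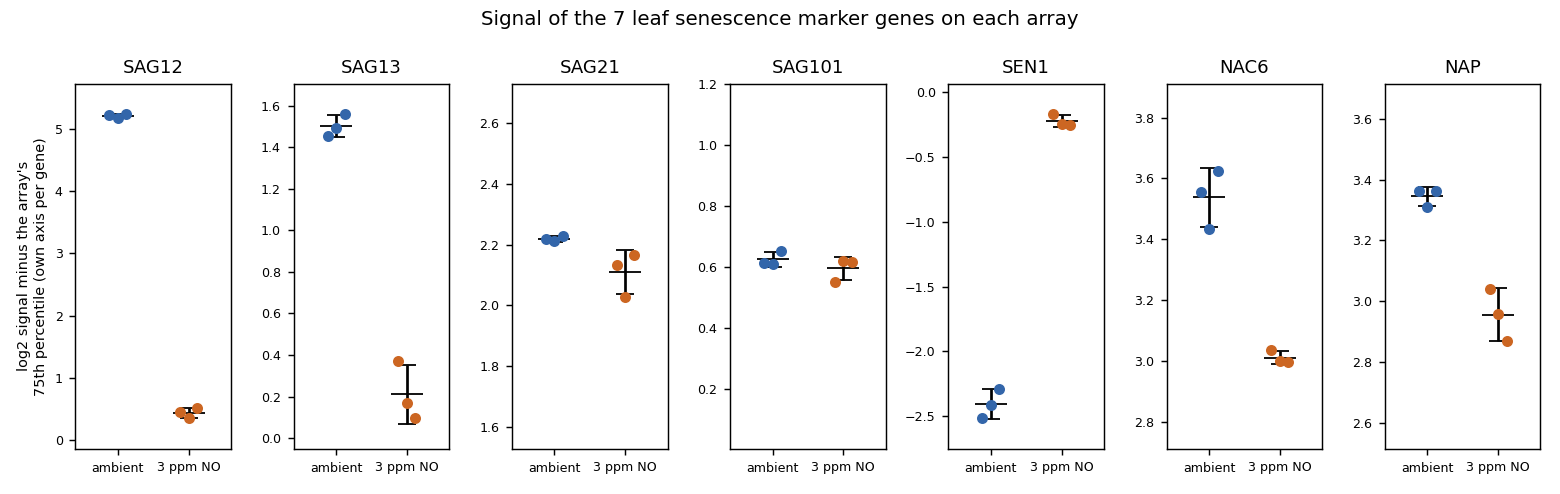
Signal of each marker gene on each array, as log2 of the signal minus the 75th percentile of the array, with a separate vertical axis per gene; points are single arrays (blue ambient, orange 3 ppm NO) and bars the mean ± SD of 3 arrays. The groups of SAG12 and SEN1 are separated by 4.79 and 2.18, whereas those of SAG101 overlap.

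NAC6 and NAP are NAC-domain transcription factors that switch on senescence genes. NAC6 is held down by a microRNA in young leaves and rises with age, and NAP promotes chlorophyll loss in part through abscisic acid. The NAC6 probe read 11.8, 10.8 and 12.3 times the 75th percentile in ambient air and 8.20, 7.998 and 7.99 times in NO. The groups did not overlap, and the ambient samples were the more spread out. The log2 change was -0.53 ± 0.06 (adjusted p = 0.000536 in limma), with a 95% interval of -0.67 to -0.38. CDPK19, a calcium-dependent protein kinase gene, and UVH6, a DNA repair helicase gene, were nearest to NAC6 in pattern (distances 0.0767 and 0.0774).

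NAP read 10.3, 9.92 and 10.3 times the 75th percentile in ambient air and 8.23, 7.78 and 7.30 times in NO. Here too no NO sample reached an ambient one. The change was -0.39 ± 0.06 (adjusted p = 0.00164 in limma), and the second NAP probe gave the same size of change, -0.39 ± 0.07. The nearest genes over the 6 arrays were NFD3 and SAMC2, at distances of 0.0358 and 0.0685. In the ranking of all tested genes 1754 fell further than NAC6 and 2960 further than NAP, so changes of this size were frequent on these arrays.

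Of 7 genes that have been placed downstream of NAC6, 5 fell, 1 rose and 1 did not pass. Among all tested genes 32.2% passed as lower and 25.7% as higher. Whether these changes follow that of NAC6 was not tested. BFN1, a nuclease gene, fell by 1.31 on the log2 scale (SE 0.09), and SAG29, a sugar transporter gene also called SWEET15, fell by 2.29 (SE 0.07). NYE1 and PAO of chlorophyll breakdown and VNI2, itself a NAC gene that delays senescence, fell by 0.80, 0.30 and 0.60. RNS3, a ribonuclease gene, rose by 0.49 ± 0.11, and NYC1, a chlorophyll b reductase gene, did not pass (0.02 ± 0.05). VNI2, RNS3 and NYC1 are outside the naming rule, and the set was put together after the values were seen. Of the NAP targets, the phosphatase gene SAG113 did not pass (0.06 ± 0.06, adjusted p = 0.419 in limma), and AAO3, an abscisic acid synthesis gene, was at -0.15 ± 0.05 (adjusted p = 0.0482 in limma), just past the threshold. Both were also named after their values were seen. Of 5 NAC genes close to NAC6 and NAP, 4 were tested, 2 fell (32.2% of all tested genes did) and 2 did not pass. AT5G07680 (NAC080) fell by 1.21 on the log2 scale with a single-probe range of -1.21 to -0.97 over its 3 probes.

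SAG21 and SAG101 showed no change that passed in the fit described here. SAG21 encodes a mitochondrial late embryogenesis abundant protein that oxidants and ethylene induce. Its signal was 4.65, 4.63 and 4.69 times the 75th percentile in ambient air and 4.38, 4.08 and 4.49 times in NO. The 3 NO samples were the lowest, by a small margin. The change was -0.11 ± 0.05 (adjusted p = 0.119 in limma), with a 95% interval of -0.24 to 0.02. It passed when the arrays were scaled to the median (-0.18, adjusted p = 0.0289 in limma) and when its probes were averaged (-0.14, adjusted p = 0.0490 in limma). The second SAG21 probe read 2.17, 2.20 and 2.21 in ambient air and 1.91, 1.92 and 2.03 in NO. Its change of -0.17 ± 0.05 passed over all 30197 tested probes (adjusted p = 0.0297 in limma), of which 52.0% passed, and it kept that call in 7 of 17 other settings. The 2 tested relatives of SAG21, LEA3 and DI21, rose by 0.56 ± 0.05 and 0.76 ± 0.07, and are named after their values were seen. SUVH3 and CCX4 were nearest to SAG21 in pattern (distances 0.0359 and 0.0458).

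SAG101 encodes a lipase-like protein that joins EDS1 in plant immunity and was first found through its rise in senescing leaves. Its brightest probe read 1.53, 1.53 and 1.57 times the 75th percentile in ambient air and 1.47, 1.54 and 1.53 times in NO, and the groups overlapped. The change was -0.03 ± 0.05 (adjusted p = 0.610 in limma), and its 95% interval of -0.14 to 0.08 spans from 1.104-fold lower to 1.06-fold higher. A second probe for the same transcript accession gave -0.05 ± 0.06. TOP1ALPHA, a DNA topoisomerase gene, and SAP7 were nearest to SAG101 in pattern (distances 0.0312 and 0.0380). The last SAG101 probe, annotated to another transcript of the gene, was dim, at 0.117, 0.144 and 0.123 in ambient air and 0.0896, 0.0987 and 0.108 in NO. It gave -0.37 ± 0.10 (adjusted p = 0.0250 in limma over all probes), passed in 10 of 17 other settings, and was at -0.23 with normexp (adjusted p = 0.0876 in limma). It therefore differed from the bright probes in whether it passed, and the difference between probes was not tested.

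**Figure D3:**
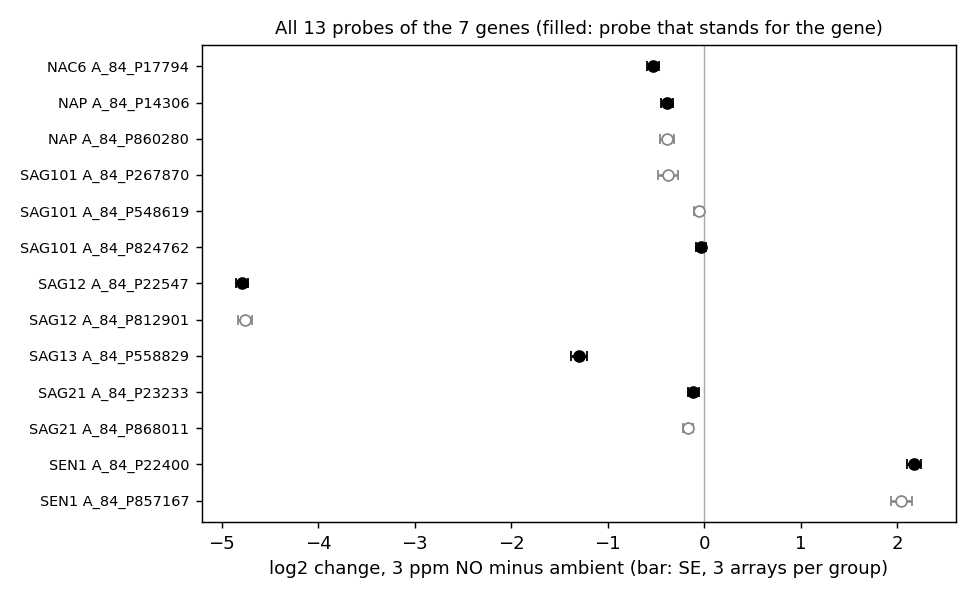
Log2 change, 3 ppm NO minus ambient, of all 13 probes of the marker genes with its SE (3 arrays per group); filled points mark the probe that stands for the gene. The probes of SAG12, SEN1 and NAP lie close to each other within each gene, whereas the SAG101 probes range from -0.37 to -0.03.

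Related genes were read from lists of the same programme. Among 13 tested genes of the other senescence-associated genes, 8 fell, 3 rose and 2 did not pass. Across all tested genes 32.2% passed as lower and 25.7% as higher. The median log2 change of the list was -0.19 beside -0.05 for all tested genes. That median was -0.08 with averaged probes (all genes -0.04) and -0.36 with quantile normalization (all genes -0.08). With averaged probes 6 genes of the list fell. SAG29 was 4.89-fold lower, SRG1, an oxygenase gene, was 2.26-fold lower and YLS2, a strictosidine synthase-like gene, was 1.49-fold lower. YLS5 and SAG14 went against the list and were 3.30-fold and 1.54-fold higher. SAG14 encodes a blue copper-binding protein, and all 5 of its probes rose.

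Of 31 tested regulators of leaf senescence, 15 fell, 5 rose and 11 did not pass, beside 32.2% lower and 25.7% higher among all tested genes, and the median was -0.26. Whether these shares differ was not tested. MYB2 was 2.51-fold lower, the NAC genes ANAC087 and ATAF1 were 2.06-fold and 1.71-fold lower, and SAUR36, an auxin-responsive gene that promotes senescence, was 1.84-fold lower. WRKY53, an early regulator that was named after its value was seen, had a change of -0.95 ± 0.08. The list holds both promoters and repressors of senescence, so its counts and median do not give a direction of the programme. VNI2, which delays senescence, was among those that fell (-0.60 ± 0.04). Of the 5 that rose, WRKY54, a repressor of senescence, was 1.44-fold higher and PIF4, which promotes senescence in darkness, was 1.28-fold higher. The others that rose were ABI5 (0.51 ± 0.09), MYC2 (0.39 ± 0.07) and EIL1 (0.34 ± 0.07), named with VNI2 after their values were seen. PIF4 did not pass with the source-name replicate numbers as a block (adjusted p = 0.0507 in limma). In that fit only ambient replicates 2 and 3 and NO replicates 1 and 2 inform the change.

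None of the 8 chlorophyll breakdown genes rose, where limma passed 25.7% of all tested genes as higher. Of them 5 fell, beside 32.2% of all tested genes, and 3 did not pass, with a median of -0.26. Tested singly over all probes, 1 of 2 probes fell for NOL, counted among the 5 (-0.21 and -0.03). The 2 RCCR probes, at -0.10 and 0.27, did not pass, whereas both NYE2 probes fell. NOL and RCCR are named after their values were seen. The magnesium dechelatase genes NYE1 and NYE2 and the pheophytinase gene PPH were each 1.74-fold lower, and PAO, which opens the chlorophyll ring, was 1.23-fold lower. PAO did not pass with the source-name block (adjusted p = 0.0597 in limma).

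Genes of salvage and nitrogen remobilisation moved in both directions. Of 20 tested, 10 fell, 5 rose and 5 did not pass, beside 32.2% lower and 25.7% higher among all tested genes. The median of the list was -0.12, which was -0.19 with median scaling or averaged probes and -0.27 with quantile normalization. The cytosolic glutamine synthetase gene GLN1;4, the nuclease gene BFN1 and the glutamate dehydrogenase gene GDH3 were 2.68-fold, 2.48-fold and 1.77-fold lower. The cysteine protease gene RD19 and the ribonuclease gene RNS2 were 1.52-fold and 1.404-fold higher, although RD19 was at 0.16 and did not pass with quantile normalization (adjusted p = 0.0583 in limma).

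Of 6 other dark-inducible genes tested, 4 rose, 1 fell and 1 did not pass, beside 25.7% higher and 32.2% lower among all tested genes. Their median was 0.36, also with DIN6 at its bound, and 0.23 with no filter on dim probes or with only genes well above background on all 6 arrays. With averaged probes 2 of them rose. DIN6 encodes an asparagine synthetase. Its NO signal was at least 3.98-fold higher, since no ambient array had it well above background. With normexp its log2 change was 0.71, which is less than the bound. A bound sets the NO mean against the higher, on each ambient array, of the lowest signal well above background and the probe's own. DIN10, a raffinose synthase-like gene, was 1.67-fold higher but its other tested probe was at 0.02, and it did not pass when probes were averaged (adjusted p = 0.102 in limma). DIN4, a subunit gene of branched-chain amino acid breakdown, was 1.41-fold higher, with a log2 change of 0.29 in place of 0.50 under normexp. DIN2, a beta-glucosidase gene, was 3.78-fold lower with both of its probes lower.

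The partners of SAG101 in immunity were mixed. The 6 tested genes had a median of -0.02 (-0.09 with median scaling), with 2 higher, 2 lower and 2 that did not pass. The shares over all tested genes were 25.7% higher and 32.2% lower. EDS1 and PAD4, which encode lipase-like proteins, were 1.21-fold and 1.37-fold higher. ADR1 and ADR1-L2, which encode helper immune receptors, were 1.80-fold and 1.16-fold lower. The 2 that did not pass were NRG1.1 (-0.02 ± 0.05) and NRG1.2 (-0.02 ± 0.06), named after their values were seen. EDS1 did not pass when its probes were averaged (adjusted p = 0.0972 in limma) or with the source-name block (0.104). ADR1-L2 did not pass with that block (adjusted p = 0.105 in limma), with no filter on dim probes (0.0654), without ambient replicate 1 or 3, or without NO replicate 1 or 2 (0.0531 to 0.0900).

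**Figure D4:**
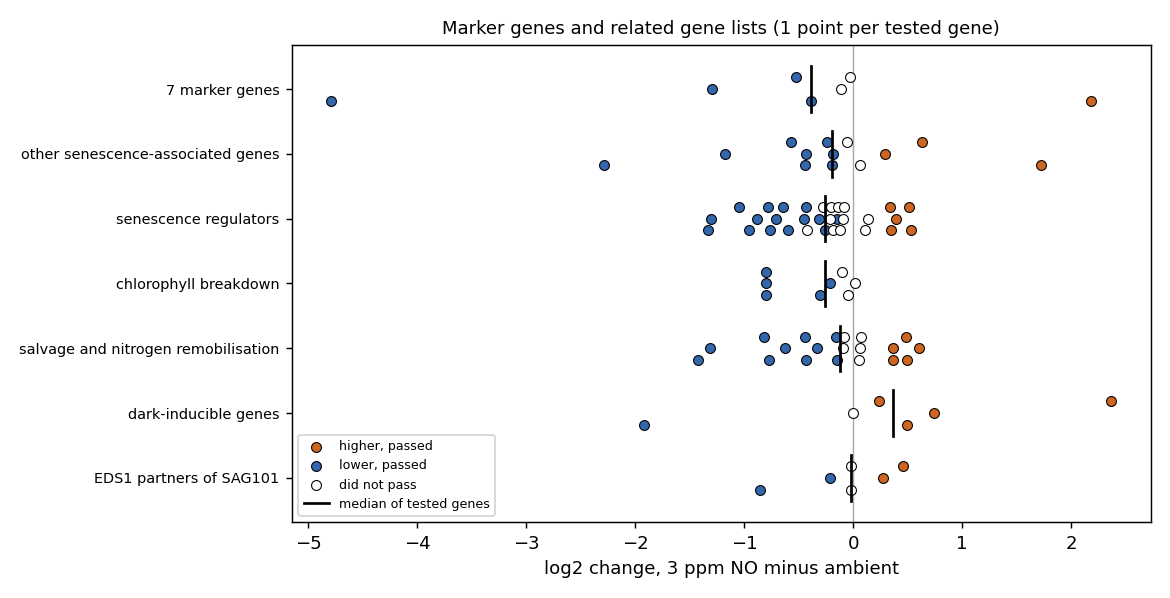
Log2 change, 3 ppm NO minus ambient, of each tested gene (1 point per gene; orange rose, blue fell, white did not pass) in the 7 marker genes and 6 related lists, with a bar at each median. SAG12 at -4.79 lies apart from all other points, and the dark-inducible genes have a median of 0.36; the point of DIN6 at 2.37 is a fitted value from ambient signals not above background.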

How the data were processed

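The deposited scanner files hold spot intensities, background-corrected and detrended in Agilent's Feature Extraction software, whose version is 10.7.3.1 per the file headers and 10.5 per the submitters' processing notes; marks for outlier, saturated and well-above-background spots, the other values used, are as deposited. The authors' log2 values in the deposited matrix are centred per probe, with unstated scaling (r of 1.000 with the scanner values centred likewise, column medians -0.07 to 0.04), and served as an alternative.

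Here the processed signal was put on a log2 scale, minus the 75th percentile of gene spots (716 to 1320). Between 5 and 18 outlier spots per array were dropped, then spots of a probe averaged. Of 43603 probes, 34285 matched 1 locus through RefSeq accessions (TAIR10.1). The headers name an older build, so no coordinates are given. A gene was represented by its brightest probe (6919 had several). The comparison used limma 3.58.1 (lmFit, eBayes; R 4.3.3) with two-sided p-values, and was tested on simulated data. The simulation shifted few genes and had no slide effect, so it does not cover the difference between the slides. No spot file held a mean signal, so normexp used spot and background medians.

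The members and lists were chosen with earlier results of these data known. The rule for naming genes took all members, up to 4 called genes per list by adjusted p, up to 2 against its majority, and the 2 nearest genes per member. Alternatives were normexp (offset 50), quantile, median and cyclic loess scaling, averaged probes, other filters, outlier spots kept, the authors' values, replicate blocks, a trended robust fit, and each replicate left out. The number of arrays limits the precision. The replicate numbers of titles (1 to 3 in both groups) and source names (2 to 4 in NO) differ, and the title numbers are used.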

Additional observations from a re-analysis of the deposited data

Results flagged for a closer look

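The spike-in control probes, which measure RNA added during labelling and belong to no comparison above, differed between the slides. The brightest of them, (+)E1A_r60_1, had a mean log2 signal 5.75 higher on the NO arrays, rising from between 984 and 1217 in ambient air to between 48229 and 74249 in NO. The gap was larger than that of SAG12 and ran the opposite way. It moves with the slide and the group together, and its part in the results was not tested.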

How the results depend on the processing

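SAG12, SAG13, SEN1, NAC6 and NAP kept their direction and passed in all 18 alternatives, with log2 changes of -4.97 to -4.74, -1.37 to -1.13, 1.77 to 2.24, -0.60 to -0.46 and -0.47 to -0.34. SAG21 kept its direction, and passed with median scaling (-0.18) and averaged probes (-0.14). SAG101 passed in none of the 18 limma fits (adjusted p at least 0.0516) and was at 0.0142 with cyclic loess, a change of sign. In every alternative 1 member rose and 4 or 5 fell. With the source-name numbers as a replicate block, 3655 genes fell in place of 6020. In that fit 5 other senescence-associated genes fell, 3 regulators rose and 3 chlorophyll breakdown genes fell. Of the salvage genes 3 rose and 6 fell, and 1 gene of EDS1 immunity went each way. Ambient replicate 1 and NO replicate 3 share a source-name number with no other array. The change in that fit therefore rests on ambient replicates 2 and 3 and NO replicates 1 and 2, with fewer degrees of freedom. With the title numbers as a block, 4551 genes rose and 5470 fell. Arrays of the same number did not deviate alike under either numbering (correlations of deviations -0.08, -0.05 and 0.05 by title, 0.02 and -0.12 by source name). So few pairs cannot show whether the arrays were paired. A call lost under a block is not described as a weaker effect. Averaged probes gave 2 dark-inducible genes and 1 EDS1 immunity gene that rose, and testing with no filter gave 1 EDS1 immunity gene that fell. With single replicates left out, 1 to 2 EDS1 immunity genes fell. The median of the EDS1 immunity genes changed sign with averaged probes (0.003476) and without ambient replicate 1 (0.002285). It ranged from -0.0442 to 0.002285 over single replicates left out. RCA was at -0.15 with quantile normalization and AP3 at -0.0408 with normexp. Of 42 other genes that the rule named from the lists, 33 kept direction and call in every alternative. The nearest genes and the genes named after their values were seen are not in this count. The causes were not tested. Slide and group cannot be told apart under any setting, and dim probes (SEN1, the last SAG101 probe) are limited by signal over background.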
